A study of Rattus norvegicus with 16 samples.

Results

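The genes described here load antigenic peptides onto MHC class I molecules: the transporter genes Tap1 and Tap2, the loading factor Tapbp, the immunoproteasome subunits Psmb8, Psmb9 and Psmb10, and B2m, the invariant chain of class I. They were chosen by name as all probes whose gene symbol, read through the RefSeq identifier of the probe, was one of 9 listed genes. Of the 9, 7 had a probe, 1 each and printed as 2 spots, out of 26785 genes measured. Erap1 and Nlrc5, also listed, matched no named probe and are not analysed here.

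Class I molecules show short peptides from the inside of a cell to CD8+ T cells, and NK cells read the amount of class I itself. Proteasomes cut cytosolic proteins into peptides, the TAP1-TAP2 pump carries the peptides into the endoplasmic reticulum, and tapasin (Tapbp) holds an empty heavy chain, paired with β2-microglobulin, beside the pump until a peptide fits. Interferon-γ, a product of activated T and NK cells, is known to raise most of these genes together, and exchanges the catalytic subunits of the standard proteasome for PSMB8, PSMB9 and PSMB10, which make the immunoproteasome.

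The cells came from female rats, 15 weeks old, of the Wistar Kyoto (WKY; spelled Wista Kyoto in the labels) and Lewis (LEW) strains. All had been immunised with an autoantigen that induces autoimmune glomerulonephritis, and blood and kidneys were taken on days 30 to 35, so no group is an unimmunised control. Cells were sorted with magnetic beads in 3 steps. CD8+ cells were split by RT1B, a rat MHC class II molecule, into RT1B+ and RT1Blow cells. The 8 groups, of 2 arrays each, were LEW blood CD8+ RT1B+ and RT1Blow, WKY blood CD8+ RT1B+ and RT1Blow, WKY glomerular CD8+ RT1B+ and RT1Blow, WKY blood pan T cells, and a population labelled as WKY glomerulus-infiltrating macrophages. The study's design describes the CD8+ cells as CD8αα+. Whether a group's 2 arrays were made from separate animals is not stated, so every p-value measures only the spread between these arrays, which may be technical.

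The markers bear on how the group names can be read. In glomerular CD8+ cells 11 of 11 measured T cell markers were lower than in pan T cells and 8 of 9 tested NK cell markers were higher (limma, adjusted p under 0.05 and at least 2-fold); in WKY blood CD8+ cells these counts were 10 of 11 and 8 of 9. The mean level of the NK cell markers was 3.02 to 3.65 on the CD8+ arrays, 0.43 to 1.09 on the macrophage-labelled arrays and -0.18 to 0.88 on the pan T arrays. The arrays labelled macrophage carry a pan T name in the array record. Their Cd3e level was -0.03 and -1.13, against 2.18 and 2.64 in pan T cells, Cd14 stood at 3.77 and 3.31 and Cd68 at 4.42 and 3.38, while neither array had Cd163 well above background. Of 12 tested macrophage markers 5 were higher than in pan T cells and 0 lower, with a median of 2.97. They also held 6 of 8 tested glomerular and 7 of 10 kidney tubule markers above the pan T arrays; the mean level of the glomerular markers was -0.27 to 0.41 there and -4.57 to -3.93 on the glomerular CD8+ arrays. One glomerular RT1Blow array goes against its gate: RT1-Bb, a chain of the sorted molecule, was 3.16 on replicate 2 and 1.56 on replicate 1, against 2.45 and 2.54 on the RT1B+ arrays. Between 57.3% and 68.6% of gene spots were well above background per array. All 7 member probes were well above background on all 16 arrays, and none was saturated.

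The stretches at and near the starts of these genes are shown because 6 of the 7 share a short interferon-type element. A further reason is that Tap1 and Psmb9, the pair of members whose levels moved most alike, lie head to head on chromosome 20. Tap2, Psmb8, Tap1 and Psmb9 are consecutive genes there. Genes outside the members followed Tap1, and others Psmb9, more closely than the pair followed each other. Any part of the shared region in the levels was not tested. The sequences are RefSeq's, in the GRCr8 build, read 5′ to 3′ along the gene; the files name an older build, and no coordinate was carried between them. The element searched was GAAA, any 2 bases and GAAA again, on either strand, within 250 bases before to 50 bases after each start. It was present for 6 of 7 members and in 3.92% of 33469 rat windows. In the next lines capitals mark it; Psmb8 carries it on the opposite strand, in Tapbp 2 matches overlap, and Psmb10 has another match, not shown, that starts at -73 from the gene start, where the one shown starts at -17.
Tap2, chr20:4652308-4652357, minus strand: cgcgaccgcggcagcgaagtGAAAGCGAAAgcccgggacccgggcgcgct
Tapbp, chr20:4967868-4967923, minus strand: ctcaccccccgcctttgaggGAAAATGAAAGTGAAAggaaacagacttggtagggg
Psmb8, chr20:4657006-4657055, minus strand: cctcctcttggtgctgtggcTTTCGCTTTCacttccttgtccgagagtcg
Psmb10, chr19:50743280-50743329, minus strand: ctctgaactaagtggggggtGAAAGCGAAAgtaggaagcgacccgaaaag
B2m, chr3:129549160-129549209, plus strand: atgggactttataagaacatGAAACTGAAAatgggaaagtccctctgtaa

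Tap1 and Psmb9 start 457 bases apart on opposite strands and are transcribed away from each other. The 250 bases before each start are given next. In the Tap1 line capitals mark the interferon-type element, on the opposite strand, and an NF-kB-type element, GGG, any 2 bases and TTTCC; in the Psmb9 line they mark the 44 bases that also lie in the Tap1 line, there read from the other strand.
Tap1, chr20:4668544-4668793, minus strand: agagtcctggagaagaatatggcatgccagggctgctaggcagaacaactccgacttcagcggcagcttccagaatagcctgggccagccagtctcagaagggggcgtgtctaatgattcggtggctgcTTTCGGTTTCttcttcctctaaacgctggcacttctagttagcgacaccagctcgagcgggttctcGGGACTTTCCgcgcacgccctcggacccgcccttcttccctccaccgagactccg
Psmb9, chr20:4668750-4668999, plus strand: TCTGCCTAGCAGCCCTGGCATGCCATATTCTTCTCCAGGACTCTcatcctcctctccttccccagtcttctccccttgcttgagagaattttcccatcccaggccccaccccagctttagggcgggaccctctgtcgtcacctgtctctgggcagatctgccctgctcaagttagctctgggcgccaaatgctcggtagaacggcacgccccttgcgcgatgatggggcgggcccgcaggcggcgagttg
The Psmb9 window itself held no interferon-type element, but the match in the Tap1 window lies 336 bases before the Psmb9 start, and the NF-kB-type match 402 bases before it. The NF-kB-type element, also searched on both strands, was present for Tap1, Tapbp and B2m and in 1.53% of all windows. CCAAT was present for Psmb8, Psmb9 and B2m and in 37.5% of all windows. TTCNNNGAA, a GAS-type element that reads the same on both strands, was present for Psmb8 and in 8.87%. The 4 motifs were chosen after the sequences had been seen. A match describes letters in a window, not a bound site.

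Tap1, which encodes one chain of the peptide pump, separated tissue from blood most widely of the 7. A level here is the log2 signal of the probe minus the 75th percentile of its array, so a step of 1 is a 2-fold difference, and levels of different probes are not compared. Tap1 was 2.29 and 2.51 in WKY glomerular RT1Blow cells, 2.02 and 2.82 in glomerular RT1B+ cells, and 2.28 on both macrophage-labelled arrays. In WKY blood it was 1.17 and 1.02 in RT1Blow cells, 1.35 and 0.62 in RT1B+ cells, and 0.54 and 0.82 in pan T cells. In LEW blood it was 1.02 and 0.96 in RT1Blow cells and 0.65 and 0.40 in RT1B+ cells. All 6 glomerular arrays lay above all 10 blood arrays, of either gate and either strain, and the gap between the lowest glomerular mean and the highest blood mean was 1.18. Among the blood groups no neighbours in the order of means were separated: WKY RT1Blow 1.10, LEW RT1Blow 0.99, WKY RT1B+ 0.99, pan T 0.68 and LEW RT1B+ 0.52.

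**Figure D1:**
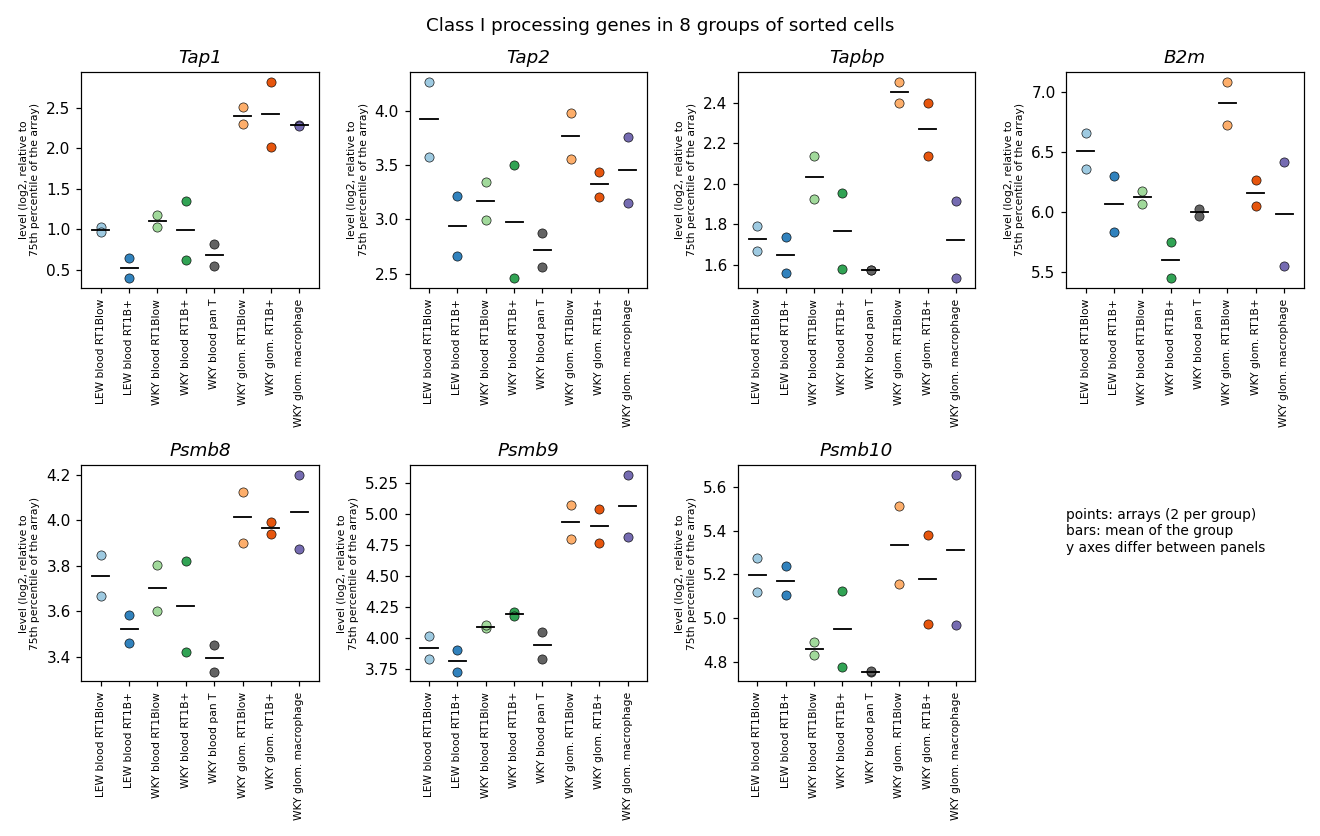
Level of each of the 7 genes (y axis, log2 after subtracting each array's 75th percentile; the axes differ between panels) in the 8 groups; points are arrays, 2 per group, and bars are group means. The 6 glomerular arrays stand above the 10 blood arrays for Tap1, Psmb9 and Psmb8 with this scaling (quantile normalization turned the glomerular against WKY blood difference of Psmb8 to -0.04), and the 4 CD8+ ones alone for Tapbp; B2m and Tap2 mix glomerular and LEW blood arrays at the top.

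WKY glomerular CD8+ cells were compared with WKY blood CD8+ cells, both gates averaged, to ask how class I processing differs between the diseased tissue and the circulation. Tap1 was higher in the glomerular cells by 1.37 ± 0.21 (SE) on the log2 scale, 2.58-fold, with an adjusted p of 0.000865 (limma, 4 arrays against 4). It was the 1 member of 7 that passed the test, which asked for an adjusted p under 0.05 over the 17858 genes tested and a difference of at least 2-fold; 14.4% of all tested genes passed, 9.54% as higher. Each gate alone gave the same call, with 2.70-fold in RT1B+ cells (adjusted p 0.00806; 13.2% of genes passed) and 2.47-fold in RT1Blow cells (adjusted p 0.0202; 9.23% passed). Under other scalings of the arrays the Tap1 difference stayed positive with an adjusted p under 0.05, but its size fell below 2-fold, to 0.89, with a normexp background correction and in the authors' series matrix. The blood cells were hybridised on one slide and the glomerular cells on the other, so slide and tissue cannot be told apart here. Nor, in bulk RNA, can fewer cells of a type and less RNA per cell. The glomerular cells had 5 of 7 erythroid and 4 of 9 B cell markers lower, 4 of 12 macrophage markers higher and 1 lower, 2 of 8 glomerular markers higher, and 3 of 10 tubule markers higher and 1 lower. The part of these markers in the result was not tested.

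Glomerular CD8+ cells and blood pan T cells shared a slide but lay in different rows of it, so population and slide row cannot be told apart. Tap1 was 1.73 ± 0.26 higher in the former, 3.32-fold, adjusted p 0.000280 (limma), and was again the 1 member of 7 to pass, where 28% of all tested genes did and 17.5% did so as higher. The difference was 1.42 to 1.49 under the 3 other scalings, and 1.53 to 1.93 with any single array left out. All 7 members stood higher without overlap between the arrays of the groups, as did 30.2% of all tested genes. The median difference of the 7 was 0.79, and that of all tested genes 0.16. These groups also differed in the T cell and NK cell markers given above, and in 7 of 7 erythroid markers, lower in the glomerular cells; the part of these differences in the result was not tested.

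The partner chain Tap2 varied more between the arrays of a group. Its 2 arrays read 3.98 and 3.56 in glomerular RT1Blow cells, 3.21 and 3.44 in glomerular RT1B+ cells, 3.34 and 2.99 in WKY blood RT1Blow cells, 3.50 and 2.46 in WKY blood RT1B+ cells, and 2.56 and 2.88 in pan T cells. In LEW blood it was 4.27 and 3.58 in RT1Blow cells and 3.22 and 2.67 in RT1B+ cells, and on the macrophage-labelled arrays 3.75 and 3.15. The highest single array was thus from LEW blood, and no neighbouring groups in the order of Tap2 means were separated. Against WKY blood CD8+ cells the glomerular difference was 0.47 ± 0.27, adjusted p 0.197, and against pan T cells 0.82 ± 0.33, adjusted p 0.0644. In RT1Blow cells alone the latter was 2.06-fold with an adjusted p of 0.0477, which passed, as did 27.9% of tested genes.

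Tapbp, the tapasin gene, was highest in the glomerular CD8+ cells. It read 2.50 and 2.40 in RT1Blow and 2.14 and 2.40 in RT1B+ cells there, and 1.91 and 1.53 on the macrophage-labelled arrays. In WKY blood it was 1.92 and 2.14 in RT1Blow cells, 1.58 and 1.96 in RT1B+ cells, and 1.57 on both pan T arrays, and in LEW blood 1.79 and 1.67 in RT1Blow and 1.56 and 1.74 in RT1B+ cells. All 4 glomerular CD8+ arrays lay above the macrophage-labelled and blood arrays, the lowest of them only just above the highest WKY blood array at 2.14. The difference from pan T cells was 0.79 ± 0.19, 1.73-fold, adjusted p 0.00540, and that from WKY blood CD8+ cells 0.46 ± 0.15, 1.38-fold, adjusted p 0.0378, both under the 2-fold minimum. The first was 0.52 to 0.55 under other scalings, with adjusted p up to 0.0462; the second fell to 0.05 to 0.28 and none of these had an adjusted p under 0.05.

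B2m, needed for every class I molecule to reach the cell surface, ordered the groups in another way. It read 7.09 and 6.73 in glomerular RT1Blow cells and 6.27 and 6.05 in glomerular RT1B+ cells. In LEW blood it was 6.66 and 6.36 in RT1Blow and 6.29 and 5.83 in RT1B+ cells, and in WKY blood 6.18 and 6.06 in RT1Blow and 5.75 and 5.44 in RT1B+ cells. The pan T arrays read 6.03 and 5.96, and the macrophage-labelled arrays 6.42 and 5.54, the widest pair. Both glomerular RT1Blow arrays lay above all others, and both WKY blood RT1B+ arrays lay below all others but 1 macrophage-labelled array. The glomerular against WKY blood difference was 0.67 ± 0.21, 1.60-fold, adjusted p 0.0288, under the 2-fold minimum; the arrays of these groups overlapped, and other scalings gave 0.11 to 0.56 with no adjusted p under 0.05.

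Of the immunoproteasome genes, Psmb9 followed Tap1. It read 5.08 and 4.80 in glomerular RT1Blow cells, 4.77 and 5.04 in glomerular RT1B+ cells, and 5.32 and 4.82 on the macrophage-labelled arrays. In WKY blood it was 4.08 and 4.10 in RT1Blow cells, 4.21 and 4.18 in RT1B+ cells, and 3.83 and 4.05 in pan T cells. In LEW blood it was 3.83 and 4.01 in RT1Blow and 3.90 and 3.73 in RT1B+ cells. The 6 glomerular arrays again lay above the 10 blood arrays, and the gap between means was 0.71.

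Psmb9 was 1.72-fold higher in glomerular than in WKY blood CD8+ cells (0.78 ± 0.16, adjusted p 0.00365) and 1.97-fold higher than in pan T cells (0.98 ± 0.19, adjusted p 0.00162), just under the 2-fold minimum. Leaving out pan T replicate 2, glomerular RT1B+ replicate 1 or glomerular RT1Blow replicate 2 took the latter past 2-fold, to at most 1.09 on the log2 scale. Quantile normalization took the first difference down to 0.29, adjusted p 0.0986, and the second to 0.44, adjusted p 0.0394. Together with Tap1, Tapbp and B2m, it made 4 of 7 members with an adjusted p under 0.05 in the tissue comparison, where 31% of all tested genes had one, and with Tap1, Tapbp and Psmb8 4 of 7 against pan T cells, where 40.8% did.

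Psmb8, which replaces the chymotrypsin-like subunit, spanned less. It read 4.13 and 3.90 in glomerular RT1Blow, 3.94 and 3.99 in glomerular RT1B+ cells and 4.20 and 3.87 on the macrophage-labelled arrays, against 3.33 and 3.45 in pan T cells. WKY blood CD8+ arrays read 3.80 and 3.60 in RT1Blow and 3.82 and 3.42 in RT1B+ cells, and LEW blood 3.85 and 3.67, and 3.58 and 3.46. The 6 glomerular arrays lay above the 10 blood arrays, with the highest blood array, 3.85, close under the lowest glomerular one, 3.87. The difference from pan T cells was 0.60 ± 0.18, 1.51-fold, adjusted p 0.0209, and that from WKY blood CD8+ cells 0.33 ± 0.15, adjusted p 0.111; quantile normalization turned the latter to -0.04.

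Psmb10, the subunit that takes the place of the trypsin-like one, changed least, with a span of 0.58 between group means against 1.90 for Tap1. Its arrays read 5.51 and 5.15 in glomerular RT1Blow and 4.97 and 5.38 in glomerular RT1B+ cells, 5.65 and 4.97 on the macrophage-labelled arrays, and 4.76 on both pan T arrays. LEW blood, at 5.12 and 5.28 in RT1Blow and 5.24 and 5.11 in RT1B+ cells, overlapped the glomerular range; WKY blood read 4.89 and 4.83, and 5.12 and 4.78. Pan T cells were the lowest group and the only one separated from its neighbour. The glomerular differences, 0.35 from WKY blood CD8+ and 0.50 from pan T cells, had adjusted p of 0.163 and 0.0952, and the first was -0.11 under quantile normalization. In the glomerular against WKY blood comparison, 4 of 7 members (Tap1, Tapbp, Psmb8 and Psmb9) stood higher without overlap, as did 16.8% of all tested genes; the median difference was 0.47 over the 7 and 0.14 over all tested genes. That order depended on the scaling: in the series matrix the medians were 0.16 over the 7 and 0.27 over all tested genes. With quantile normalization the median of the 7 was 0.17, with 5 of 7 positive.

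**Figure D2:**
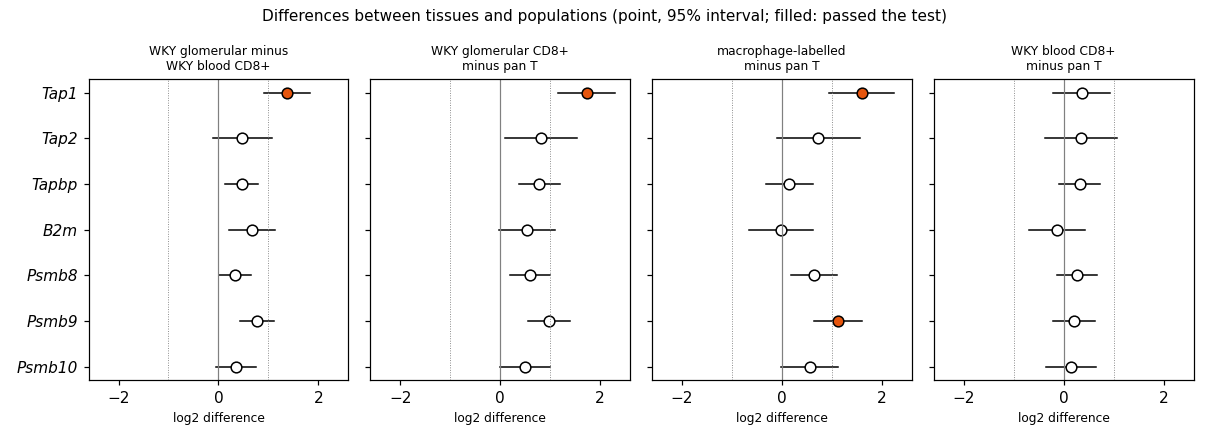
Log2 differences of the 7 genes in 4 comparisons; points are the limma estimates, bars their 95% intervals, dotted lines 2-fold, and filled points passed the test (adjusted p under 0.05 and at least 2-fold). Tap1 passed in the 3 comparisons of a glomerular population and Psmb9 in the macrophage-labelled one; under quantile normalization Psmb8 and Psmb10 turned slightly negative in the first panel, and the sign of B2m depends on the scaling in the 2 panels on the right.

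The population labelled macrophage, set against pan T cells, had the same pair at the top. Tap1 was 3.03-fold higher (1.60 ± 0.30, adjusted p 0.00103) and Psmb9 2.19-fold higher (1.13 ± 0.22, adjusted p 0.00142), and these 2 of 7 members passed, where 37.7% of all tested genes did and 17.8% did so as higher. Without macrophage-labelled replicate 1, Psmb9 fell to 0.88 and under 2-fold. Psmb8 had a difference of 0.64, 1.56-fold, with an adjusted p of 0.0245. Tap2, at 0.73, and Psmb10, at 0.55, had adjusted p of 0.132 and 0.0958, and Tapbp, at 0.15, one of 0.585. Tap1, Tap2, Psmb8, Psmb9 and Psmb10, 5 of 7, stood higher without overlap, as did 30.3% of all tested genes. B2m differed by -0.01 (95% interval -0.66 to 0.63), but by 0.72 with an adjusted p of 0.0123 after quantile normalization, which also took Psmb10 to 1.05 and past 2-fold. The glomerular and tubule markers named above move with this comparison, and their part in it was not tested. The 2 groups shared a row of a slide but lay in different columns, so population and slide column cannot be told apart.

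Between glomerular CD8+ cells and the macrophage-labelled population, scaling decided the sign of most members. These groups too lay in different rows of a slide. With the 75th percentile, 0 of 7 members passed the limma test, 1 had an unadjusted p under 0.05, and 37.2% of all tested genes passed. That 1 was Tapbp, 1.55-fold higher in the CD8+ cells with an adjusted p of 0.0132. Tap1 differed by 0.13 (95% interval -0.43 to 0.69) and Psmb9 by -0.15 (-0.57 to 0.27). After quantile normalization Psmb9 was -1.03 (adjusted p 0.000279), Psmb10 -0.95, Psmb8 -0.71 and Tap1 -0.26, and in the authors' series matrix Psmb9 was -1.04 (adjusted p 0.000403) and Tap1 -0.55; Tapbp was still positive, at 0.28 and 0.06. All tested genes had a median of 0.42 here with the 75th percentile. In the CD8+ cells 7 of 8 glomerular and 9 of 10 tubule markers were lower, and their part in these values was not tested.

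**Figure D3:**
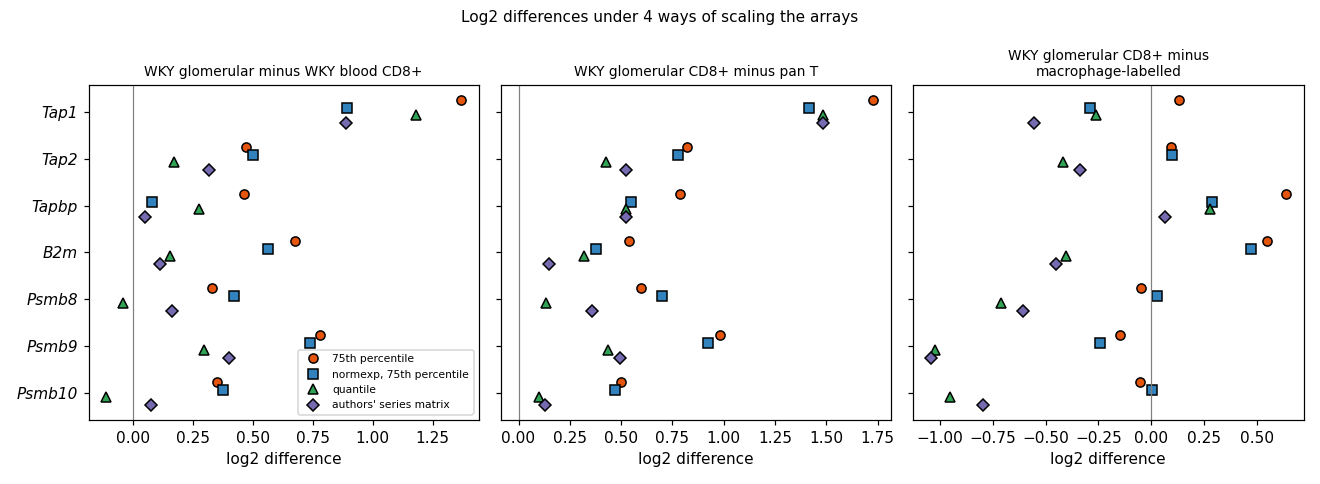
Log2 differences of the 7 genes (x axis) under 4 ways of scaling the arrays, in 3 comparisons; each symbol is 1 scaling. Tap1 stays to the right of 0 in the first 2 panels, at 0.89 or more, whereas in the glomerular CD8+ against macrophage-labelled panel Tap1, Psmb8, Psmb10, Tap2 and B2m change sign with the scaling.

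WKY blood CD8+ cells against pan T cells gave 0 of 7 members by limma, and 0 with an unadjusted p under 0.05, although 18.3% of all tested genes passed. The differences ran from -0.14 for B2m, whose sign changed with the scaling, to 0.36 for Tap1 (95% interval -0.20 to 0.93). Tapbp, Psmb9 and Psmb10 stood higher without overlap, 3 of 7, as did 25.3% of all tested genes. These groups were on different slides, so slide and population cannot be told apart. In the CD8+ cells 6 of 9 B cell markers were higher and 1 lower, and 7 of 7 erythroid markers were lower. The part of these markers in the values was not tested. The comparisons with pan T cells share the same 2 pan T arrays, so they are not independent of each other.

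Over all 16 arrays the level of Psmb9 rose with that of Tap1, with a Pearson r of 0.93. Tap1 and Psmb8 had an r of 0.87, and Psmb8 and Psmb9 one of 0.84. The weakest of the 21 pairs was Psmb9 with B2m, 0.30, and the chains of the pump, Tap1 and Tap2, gave 0.52. Arrays of a group share a sort and each array a scaling, so these values describe the 16 arrays. In the plot of the pair the glomerular arrays form a cloud of their own, and the coefficient rests on the gap between it and the blood arrays.

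**Figure D4:**
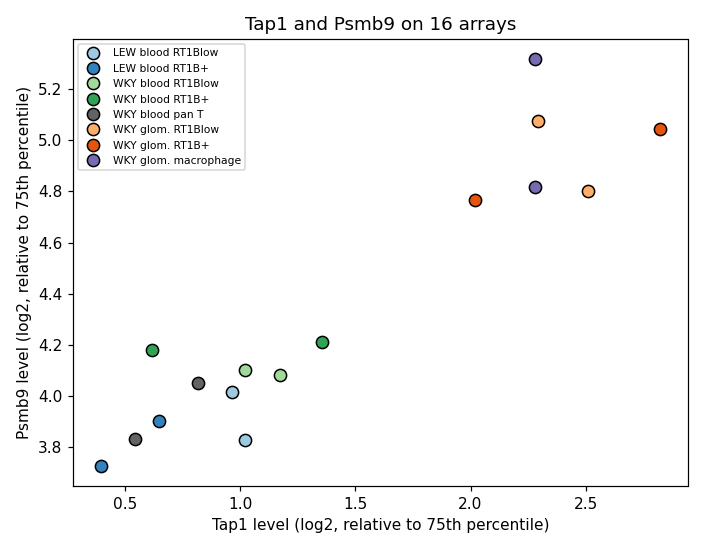
Level of Psmb9 (y axis) against that of Tap1 (x axis), both log2 after subtracting each array's 75th percentile; each point is an array, coloured by group. The 6 glomerular arrays sit at Tap1 levels of 2.02 to 2.82 and Psmb9 levels of 4.77 to 5.32, apart from the 10 blood arrays.

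Among 7481 other named genes well above background on all 16 arrays, those most like Tap1 were Prdx5 (r 0.95), a peroxiredoxin, Sgpl1 (0.95), the sphingosine-1-phosphate lyase, and Fam110a (0.94). Most like Psmb9 were Bcat1 (0.95), a branched-chain aminotransferase, Dlst (0.94) and Prkar1b (0.94). Psmb8 went with RT1-M6-1 (0.93), a class I-like gene of the same MHC, Pdlim7 (0.92) and Cyba (0.92), a subunit of the phagocyte oxidase. Psmb10 went with Uqcr10 (0.90), Ap2s1 (0.88) and Dapp1 (0.87). Tapbp went with Grb2 (0.91), Mapkapk2 (0.90) and Or4k48b (0.90). Tap2 shared Ccnf, the cyclin F gene, with B2m (0.85 and 0.86); its others were Hist1h2bd (0.82) and Mvp (0.82), and those of B2m Trim31 (0.87) and Arid3a (0.86).

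The RT1B gate asked whether class I processing differs between the class II-bearing and class II-low CD8+ cells. By limma 0 of 7 members passed in WKY blood, in LEW blood, in WKY glomeruli, or over the 3 strata together, where 0.0616%, 0.0616%, 0.795% and 0.594% of all tested genes did. The members with an unadjusted p under 0.05 numbered 0, 1, 1 and 2. The difference between the gate effects of WKY and LEW blood gave 0 of 7, with 0% of all genes, and that between glomeruli and WKY blood 0 of 7, with 0.101%.

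B2m had the same sign of gate difference in each stratum. From the levels given above it was lower in RT1B+ than in RT1Blow cells by 0.52 in WKY blood, 0.44 in LEW blood and 0.75 in glomeruli, each time with no overlap between the 2 and 2 arrays. No other member did that in all 3 strata, and 3.9% of all tested genes did. Within a stratum its size was less steady: leaving out 1 array took the LEW blood value to between -0.68 and -0.21, the latter without RT1B+ replicate 2, and the other scalings took the glomerular one to between -0.64 and -0.33. Over the strata the difference was -0.57 ± 0.17, with an unadjusted p of 0.00599 and an adjusted p of 0.139; it ran from -0.65 to -0.50 with any array left out, the glomerular RT1Blow array that goes against its gate included, and from -0.55 to -0.42 under the other scalings. Tap2 came next, at -0.54 ± 0.22 (adjusted p 0.264), most of it in LEW blood, at -0.98, and least in WKY blood, at -0.19. The class I heavy chains, the partners of B2m, gave 0 of 25 past the limma test over the strata, with 10 at an unadjusted p under 0.05. Of the 25 differences 22 were negative, and their median was -0.34 beside -0.08 for all tested genes. The RT1 genes among them are near-identical to each other, so their probes may share signal and the 25 are not separate observations. Other lists went the other way. Over the strata 9 of 13 peptide loading and trimming partners and 12 of 14 constitutive proteasome core genes had positive differences, with medians of 0.19 and 0.10. In glomeruli alone these were 13 of 13 and 12 of 14, with medians of 0.46 and 0.28 beside -0.14 for all tested genes. Of these, 0 of 13 and 0 of 14 passed. The immunoproteasome genes differed by -0.12 for Psmb8, -0.03 for Psmb10 and -0.01 for Psmb9 over the strata, the last with a 95% interval of -0.29 to 0.27; quantile normalization gave small positive values for Psmb9 and Psmb10. Erythroid markers moved with the gate, lower in RT1B+ cells for 7 of 7 over the strata, with a mean level of -4.23 to -2.71 against 0.06 to 1.47 on the glomerular arrays. B cell markers moved with it in opposite directions: 6 of 9 were lower in RT1B+ glomerular cells, with a median of -2.34, while in blood 1 of 9 in WKY and 2 of 9 in LEW were higher, with 8 and 9 of the 9 differences positive. Of 12 macrophage markers 0 passed over the strata, 7 had an unadjusted p under 0.05, and all 12 differences were negative, with a median of -1.03. Over the strata 1 of 11 T cell and 1 of 10 tubule markers passed as lower, with list medians of 0.39 and -0.73. T cell differences were positive for 10 of 11 in WKY blood and 2 of 11 in glomeruli, with medians of 1.12 and -0.66. The tubule median in glomeruli was -1.64. The part of these markers in the gate differences was not tested. Each gate also kept to its own columns of a slide, so gate and slide column cannot be told apart.

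The strain comparison, WKY against LEW blood CD8+ cells on 1 slide, asked whether class I processing in circulating cells differs between the strain known to be prone to this nephritis and the one known to resist it. By limma 0 of 7 members passed and 0 had an unadjusted p under 0.05, where 3.65% of all tested genes passed. The differences ran from -0.43 ± 0.21 for B2m (95% interval -0.88 to 0.03, adjusted p 0.304) to 0.28 ± 0.21 for Tap1 (adjusted p 0.532). Psmb9 stood higher in WKY without overlap, by 0.27 (adjusted p 0.392), 1 of 7 members, as did 8.02% of all tested genes. Under the other scalings Psmb10 ran from -0.42 to -0.29. It had an adjusted p of 0.0404 by limma in the series matrix, though under 2-fold. Of the markers 3 of 11 for T cells, 2 of 12 for macrophages and 2 of 9 for B cells were lower in WKY, and 1 of 9 for NK cells was higher and 1 lower; their part in these values was not tested. Strain and slide row cannot be told apart.

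**Figure D5:**
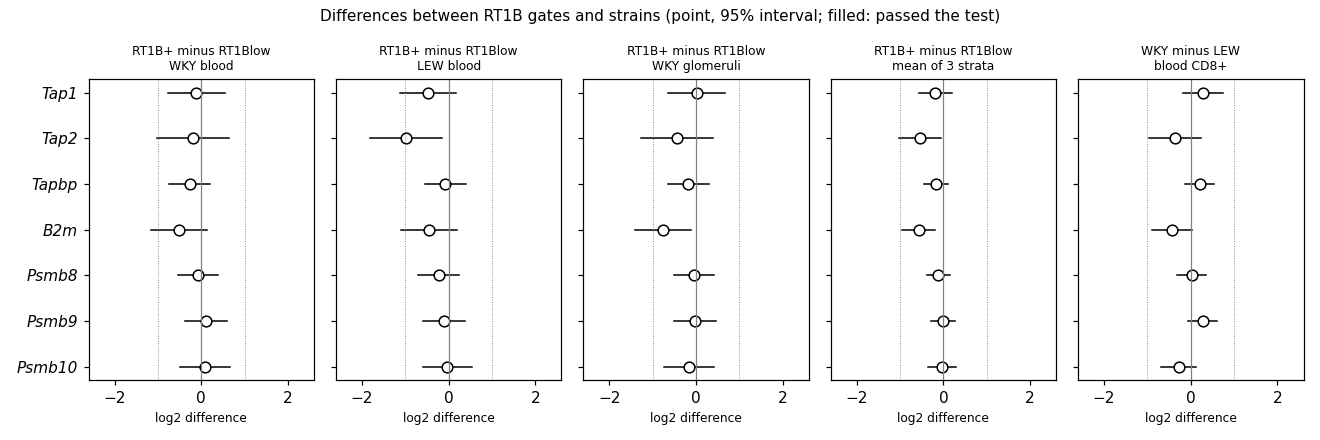
Log2 differences of the 7 genes between RT1B+ and RT1Blow cells in each stratum and over the 3 strata, and between WKY and LEW blood CD8+ cells; points are limma estimates, bars 95% intervals and dotted lines 2-fold. No point is filled, since no member passed the test in any of the 5 panels; B2m lies left of 0 in every panel, also under the 3 other scalings.

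The genes around the pathway came from lists, and the list medians stand beside 0.16 for all tested genes in the comparison of glomerular CD8+ with pan T cells. In that comparison 28% of all tested genes passed, 17.5% as higher. Of 25 tested class I heavy chains and relatives 14 were higher and 2 lower, with a median log2 difference of 1.10. RT1-CE6 was 6.08-fold, RT1-CE3 3.13-fold and RT1-T24-4 2.89-fold higher; RT1 genes are near-identical to each other, so which of them a probe measured is uncertain. Fcgrt, the neonatal Fc receptor chain, was 7.62-fold lower and Mr1, which presents vitamin metabolites to MAIT cells, 2.92-fold lower, with 2 and 1 of the 4 glomerular arrays well above background, so the sizes of both are uncertain. The count of higher heavy chains was 14, 5 and 6 under normexp, quantile and series-matrix values, and 10 to 15 with any array left out.

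Of 13 peptide loading and trimming partners 5 were higher and 0 lower in the same comparison. They were the chaperones Calr, 3.29-fold, and Hspa5, 3.02-fold, the translocon gene Sec61a1, 2.69-fold, the peptidase Thop1, 2.21-fold, and the thiol oxidoreductase Pdia3, 2.19-fold. Under the other scalings 3 to 4 passed. Of 14 constitutive proteasome core genes 0 passed, 9 had an unadjusted p under 0.05, and 7 were higher with an adjusted p under 0.05 but under 2-fold; their median was 0.56, and 0.19 to 0.45 under the other scalings. The proteasome activators and assembly factors gave 0 of 7, with 4 at an unadjusted p under 0.05. By limma 9015 of the 17858 tested genes had an unadjusted p under 0.05, and 40.8% an adjusted p under 0.05.

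Of 19 tested regulators of class I transcription 9 were higher than in pan T cells and 0 lower. Ifng, interferon-γ itself, was 19.4-fold higher and Irf1, a transcription factor that interferon induces, 3.67-fold. Irf8 was at least 13.9-fold higher, since it was not well above background in pan T cells, and Socs1, which damps interferon signalling, 7.83-fold. Between 6 and 10 passed under the other scalings. "At least" marks the bright group's mean set against the lowest signal well above background, or the probe's own if higher, on the arrays of the dim group.

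Against WKY blood CD8+ cells the lists held fewer calls, and of all tested genes 14.4% passed, 9.54% as higher. Of 25 heavy chains 3 were higher, RT1-CE6 at 2.17-fold, RT1-CE12 at 2.12-fold and RT1-CE10 at 2.04-fold, and Mr1 was 2.20-fold lower, with 1 of 4 glomerular and 3 of 4 blood arrays well above background, a call lost without glomerular RT1B+ replicate 1. The 3 became 0 without glomerular RT1B+ replicate 2, WKY blood RT1B+ replicate 2 or WKY blood RT1Blow replicate 2, and 6 without WKY blood RT1B+ replicate 1. They were 5 without glomerular RT1B+ replicate 1, 1 without glomerular RT1Blow replicate 1, and 2 with the other arrays left out. Of 13 partners 1 was higher, Thop1 at 3.26-fold. Of 19 regulators 1 was higher, Ciita, the class II transactivator, at 2.67-fold, with 2 of the 4 blood arrays well above background; without single arrays 1 or 2 were, and 0 to 4 under other scalings. The core gave 0 of 14, with 8 at an unadjusted p under 0.05, and a median of 0.49 beside 0.14 for all tested genes, and the activators 0 of 7, with 5.

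WKY blood CD8+ cells already differed from pan T cells in 7 of 19 regulators, where 18.3% of all tested genes passed. Ifng was 10.4-fold, Irf8 at least 11.5-fold and Socs1 6.75-fold higher, and Ifngr2, a chain of the interferon-γ receptor, 3.14-fold lower. Of the B cell markers 6 of 9 were higher in the CD8+ cells and 1 lower, and 7 of 7 erythroid and 3 of 10 tubule markers were lower. The part of these markers, and of the T cell and NK cell markers given above, was not tested. Of heavy chains 2 were higher, RT1-CE6 at 2.81-fold and RT1-A2 at 2.01-fold, and 1 lower, Fcgrt at 3.67-fold, with 1 of 4 CD8+ arrays well above background, a call lost with any array left out. Those 2 became 0 without pan T replicate 1, WKY blood RT1B+ replicate 1 or WKY blood RT1Blow replicate 1, 3 without pan T replicate 2 and 5 without WKY blood RT1B+ replicate 2. Of partners, Hspa5 was 2.22-fold higher, and of activators Psmf1, an inhibitor of the proteasome, 2.19-fold. The partners numbered 0 without pan T replicate 2 and 2 or 3 without pan T replicate 1, either WKY blood RT1B+ array or WKY blood RT1Blow replicate 2, and the activators 0 or 1.

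In the macrophage-labelled population against pan T cells, 3 of 25 heavy chains were higher and 1 lower, 5 of 19 regulators higher and 2 lower, and 0 of 14 core genes passed, with 3 at an unadjusted p under 0.05. Of all tested genes 37.7% passed by limma, 17.8% as higher, and 10147 of 17858 had an unadjusted p under 0.05. Ciita was at least 15.6-fold and Irf8 at least 5.35-fold higher, and Lap3, a leucine aminopeptidase, 3.55-fold; Fcgrt was 4.25-fold higher. Psme3, the nuclear activator PA28γ, was 2.93-fold lower. The heavy chains became 0 without macrophage-labelled replicate 1 or pan T replicate 1 and 5 without pan T replicate 2, and numbered 12 under quantile normalization and in the series matrix. The regulators that were higher became 2 without macrophage-labelled replicate 1.

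Between glomerular CD8+ cells and the macrophage-labelled population the surrounding genes moved both ways, where 37.2% of all tested genes passed. Of 19 regulators 9 were higher in the CD8+ cells and 2 lower: Ifng was 12.4-fold and Socs1 3.50-fold higher, Ciita 7.16-fold and Ifngr2 3.30-fold lower. Under the other scalings 7 were higher and 2 or 3 lower. Of 13 partners 6 were higher, among them Hspa5 at 2.80-fold and Calr at 2.57-fold, and Lap3 was 3.05-fold lower; after quantile normalization only 1 was higher. Of 25 heavy chains RT1-CE6 was 6.69-fold higher and Fcgrt 32.4-fold lower, the latter with 2 of the 4 CD8+ arrays well above background, so its size is uncertain. Of the activators, Psme3 was 2.15-fold higher. NK cell markers were higher for 9 of 9. Lower were 7 of 12 macrophage, 7 of 8 glomerular, 9 of 10 tubule and 4 of 7 erythroid markers. The medians of these 4 lists were -2.46, -5.84, -3.68 and -2.80. The part of these markers in the values was not tested.

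Between the strains the pathway showed single genes, where 3.65% of all tested genes passed. Tapbpl, the tapasin-like editor TAPBPR, was 6.44-fold lower in WKY than in LEW blood CD8+ cells (adjusted p 0.00902), the 1 of 13 partners that passed, and did so under the 3 other scalings too. RT1-N2 was 2.46-fold and RT1-N3 2.01-fold higher, 2 of 25 heavy chains, and Ciita 3.48-fold lower, 1 of 19 regulators, with 2 of the 4 WKY arrays well above background. RT1-N3 fell under 2-fold in the series matrix and Ciita under normexp, and with single arrays left out 1 or 2 heavy chains passed. A probe can bind less well to one strain's sequence, which was not tested. Between the gates, 1 of 19 regulators passed as higher in RT1B+ cells over the 3 strata, where the largest log2 difference of the list was 1.03. Of all tested genes 0.594% passed over the strata, 0.795% in glomeruli and 0.0616% in WKY blood. Ifngr2 was 3.39-fold lower in RT1B+ than in RT1Blow glomerular cells (adjusted p 0.0381), and Ciita at least 1.60-fold higher in RT1B+ cells of WKY blood (adjusted p 0.0460), 1 of 19 regulators each. Neither of these 2 passed in the series matrix, nor Ifngr2 with quantile normalization or Ciita with normexp. With any of the 4 arrays left out the Ciita call was lost, and the regulators that passed as lower in glomeruli were 0 or 1.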

How the data were processed

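RNA of sorted rat cells was measured on 16 one-colour Agilent arrays, 2 per group, on 2 slides of 8. The series' design text describes another platform, but the scanner files and the labels' protocol are Agilent's. Per the file headers, Feature Extraction 11.0.1.1 made the deposited intensity values, which it had background-corrected; the authors' deposited series matrix holds log2 values that correlate at 0.9991 or more with the log2 background-subtracted signal, and 13.9 to 22.2% of its values are missing. Its centring is not given in the sources used here.

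The log2 processed signal minus its 75th percentile on the array (which was 471 to 2361 units of signal) was averaged over the spots of a probe. Where a gene had several probes, the one with the highest mean was kept. Probes were named through RefSeq accessions, 18355 of 30367 with a symbol. The 17858 genes whose signal, on all arrays of some group, was well above background were fitted with limma 3.58.1 in R 4.3.3, over all 16 arrays with group means and 8 residual degrees of freedom, in 12 comparisons. P-values were adjusted by Benjamini-Hochberg over all tested genes. A gene passed with an adjusted p under 0.05, a 2-fold difference, and a signal well above background on all arrays of a group in the comparison. The test was checked on simulated data. Figures were drawn with matplotlib 3.10.9.

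The text names the 7 members in every comparison, up to 4 genes that passed per list and comparison by size of change, and, for each member, the 3 other genes with the highest Pearson r over the arrays; the other genes named complete a count of 5 or fewer. Members and lists were chosen with earlier results of these data known. Precision is limited by the 2 arrays per group, whose levels correlated at 0.978 to 0.993 over genes. Alternatives were normexp background correction (offset 50, on the median signal columns), quantile normalization, the series matrix, no fold minimum, and each array left out; the 2 gates taken alone were added after the data were seen. Erap1 and Nlrc5 were not analysed here.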

Additional observations from a re-analysis of the deposited data

How the results depend on the processing

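The number of members that passed depended mainly on the 2-fold minimum. In glomerular against WKY blood CD8+ cells the 1 member became 0 with normexp background correction and 0 in the series matrix, where Tap1 fell under 2-fold, and 4 without a fold minimum. In glomerular CD8+ against pan T cells the 1 became 4 without a fold minimum, 2 in RT1Blow cells alone, an alternative chosen after seeing the data, and 1 to 2 with single arrays left out. In macrophage-labelled against pan T arrays the 2 became 3 without a fold minimum, and Psmb10 also went past 2-fold with quantile normalization. Without macrophage-labelled replicate 1, Psmb9 fell to 0.88 there, under 2-fold. In glomerular CD8+ against macrophage-labelled arrays the 0 became 1 with quantile normalization, 1 in the series matrix and 1 without a fold minimum; the cause was not tested. The other comparisons gave 0 members under every alternative run. Counts over all genes moved more: the glomerular gate comparison, with 142 genes, had 8 to 703 with single arrays left out and 0 to 271 under the other settings, and 703 came without glomerular RT1Blow replicate 2. The glomerular against WKY blood comparison, with 2563, had 1998 to 2894 and 1495 to 5537. The strain comparison, with 651, had 342 to 729 and 117 to 1340.

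No paired analysis was possible because the labels give the arrays of a group no replicate numbers. With 2 arrays per group and 8 residual degrees of freedom, the members' fitted intervals leave room for differences under 2-fold. A member that did not pass is thus not shown to be equal between groups. Whether an interval reached 2-fold depended on the comparison. Between WKY and LEW blood CD8+ cells none did, and Tap2's reached farthest, -0.95 to 0.23 on the log2 scale. For the gate over the strata only Tap2's did, at -1.02 to -0.05. In WKY blood alone those of Tap2 and B2m did, with lower ends of -1.03 and -1.17.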
